A study of Homo sapiens with 8 samples.

Results

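The apolipoprotein L genes APOL1, APOL2, APOL3, APOL4 and APOL6 were followed in A549 cells, a human lung adenocarcinoma line. The members were taken as the rows of the count table whose Ensembl identifiers map to these symbols, which gave 5 of 60664 genes, and all 5 had counts in at least 1 library. The 8 RNA libraries fall into 4 groups of 2, namely untreated cells and cells given interferon-γ (IFN-γ), the kinase inhibitor AX-0085 (AX0085 in the labels), or both. The labels give 20 ng of IFN-γ with no volume. The inhibitor, at 0.5 μM, followed 24 h later, and the harvest another 24 h after that. The labels do not state whether untreated cells received a vehicle, and nothing says whether the 2 libraries of a group came from separate cultures, so that p-values measure only the spread between these libraries. All groups are of this cell line, and in such bulk RNA fewer expressing cells and less RNA per cell cannot be told apart.

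The APOL genes encode small intracellular or secreted proteins that act on lipid membranes, and they are known as genes induced by interferon. APOL1 is the secreted member, which travels on high-density lipoprotein particles and kills trypanosomes by forming channels in their membranes. APOL3 acts in the cytosol, where it dissolves the membranes of invading bacteria. APOL6 has been linked to apoptosis and APOL2 is an intracellular member, while little is known of APOL4. IFN-γ acts through the JAK1 and JAK2 kinases, and its target genes include many defense factors.

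The family lies in a cluster on chromosome 22 that spans 619 kb in GRCh38, from position 35648446 to 36267530. APOL6 (ENSG00000221963, plus strand) occupies 35648446 to 35668404 and has 3 exons in its canonical transcript. APOL3 (ENSG00000128284, minus strand, 36140329 to 36166177), APOL4 (ENSG00000100336, minus strand, 36189124 to 36204840), APOL2 (ENSG00000128335, minus strand, 36226209 to 36239954) and APOL1 (ENSG00000100342, plus strand, 36253071 to 36267530) follow close together, with gaps of 22.9, 21.4 and 13.1 kb. The remaining gene of the family, APOL5, lies 49.5 kb beyond APOL6 and 411 kb before APOL3, and had 0 counts in all 8 libraries, so that it was not measured. No other gene annotated in GENCODE 44 overlaps any of the 5. The genes are paralogs, yet 0 of the 3882 windows as long as a sequencing read in APOL1 transcripts occur in transcripts of any other gene, and the count is also 0 for APOL2, APOL3, APOL4 and APOL6. Sharing of reads with mismatches was not examined.

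Total counts ranged from 20672828 to 29978251 per library. At this depth 3 counts equalled 0.0959 to 0.158 CPM (counts scaled to the library total with edgeR's TMM factors), used below as a detection floor for counting error only. The epithelial keratins KRT8 and KRT18 were high in every library, from 1508 to 4415 CPM and from 927 to 2383 CPM. The remaining epithelial markers were far lower, with CDH1 from 10.7 to 81.8 CPM, KRT19 from 9.53 to 46.5 and EPCAM from 0.281 to 8.62. The alveolar type 2 markers SFTPA1, NAPSA and NKX2-1 had 0 counts in all 8 libraries and were thus not measured. Of the markers of that cell type with counts, SFTPB had at most 1 count in a library and SFTPC at most 12. Among leukocyte markers, CD3E and CD68 had 0 counts in all 8 libraries and were not measured either. PTPRC had at most 1 count in a library, and its level lay between 0 and 0.0331 CPM in untreated cells and at 0 with IFN-γ. The summed epithelial markers were lower in the treated groups, at 2575 to 2882 CPM with IFN-γ against 6425 to 6881 in untreated cells, 3224 to 3397 with AX-0085 and 3607 to 3661 with both. Almost all of this sum was KRT8 and KRT18, so that it does not describe CDH1, KRT19 and EPCAM. The 2 endothelial markers PECAM1 and VWF together stayed at or below 0.367 CPM, and the fibroblast markers COL1A1, DCN and PDGFRB together lay between 9.03 and 10.8 CPM in untreated cells between 9.12 and 9.63 with AX-0085, between 3.06 and 4.59 with IFN-γ and between 7.03 and 8.45 with both, almost all of it COL1A1. The part of these marker changes in the results below was not tested.

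With IFN-γ alone, APOL1, APOL2, APOL3 and APOL6 all rose past both thresholds, an adjusted p under 0.05 and a fold change over 2, while 10.3% of the 15066 genes tested were called higher. APOL4 was too low to be tested. The 4 responses differed widely in size, from about 3-fold in APOL2 to an increase from near 0 in APOL3. In each of the 5 genes the IFN-γ libraries lay above the untreated libraries, where APOL3 and APOL4 were near or at 0. The share of all genes that separate in this way was not counted, so this is a description only. APOL3 entered the test only through the libraries where it was high, so that its call was bound to follow and does not count as support for a pattern over the family. The median log2 change of all genes tested was -0.06. All tests were edgeR quasi-likelihood tests, and SE denotes the standard error of a log2 change.

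APOL6 had the largest fold rise among the members with more than 1 count in untreated cells. Untreated libraries held 377 and 281 APOL6 counts (12.5 and 11.4 CPM), and IFN-γ libraries 3615 and 5114 (191 and 206 CPM). Its mean level went from 12.0 ± 0.728 CPM (SD, n = 2) to 198 ± 10.4 CPM (SD, n = 2), a log2 change of 4.05 (SE 0.08, edgeR, Benjamini-Hochberg-adjusted p = 3.81e-13), or 16.5-fold. Both IFN-γ libraries were far above every library without IFN-γ. The change ranked 89 from the top among all genes tested.

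For APOL1, the secreted member, untreated libraries held 277 and 252 counts (9.17 and 10.3 CPM), and IFN-γ libraries 1982 and 2381 (105 and 95.7 CPM). The log2 fold change was 3.37 (SE 0.09, edgeR, Benjamini-Hochberg-adjusted p = 4.15e-12), or 10.3-fold. The spread between the 2 IFN-γ libraries, 6.34 CPM (SD), was small against this difference.

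APOL2, an intracellular member, had the smallest rise of the 4. Its counts were 673 and 569 without treatment (22.3 and 23.2 CPM) and 1422 and 1642 in IFN-γ libraries (75.1 and 66.0 CPM), a log2 change of 1.63 (SE 0.09, edgeR, Benjamini-Hochberg-adjusted p = 2.33e-09). This is 3.10-fold, rank 616 from the top among all genes tested.

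APOL3 went from the edge of detection to a clear signal. Untreated libraries held 1 and 0 counts, and IFN-γ libraries 496 and 592 (26.2 and 23.8 CPM). The ratio of the summed counts was 1360, with a 95% exact binomial interval from 244 to 53778 that covers counting error only. With 1 count in untreated cells the size of this rise is poorly known, although the groups are far apart (edgeR, Benjamini-Hochberg-adjusted p = 1.3e-11). APOL4 had 5 counts in each IFN-γ library, 0.264 and 0.201 CPM, and 0 counts in every other library. Against the level of 3 counts per library it was at least 2.10-fold higher with IFN-γ than in untreated cells, a difference that was not tested.

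**Figure D1:**
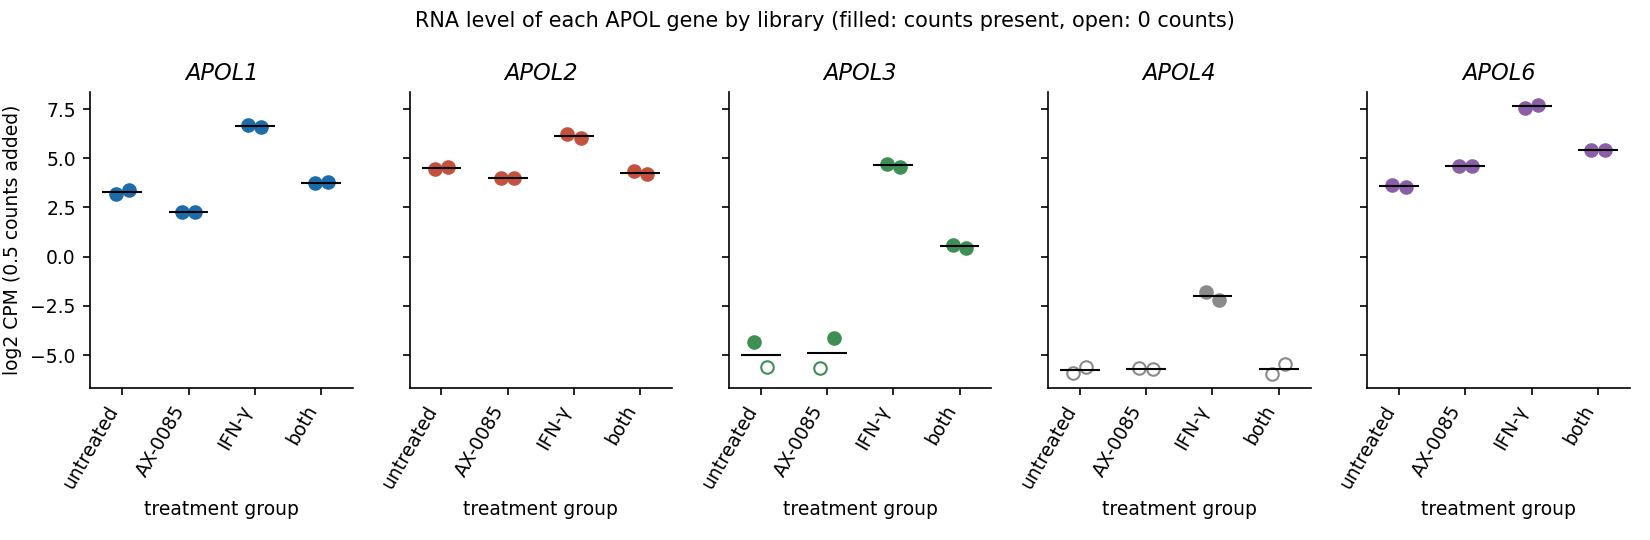
Level of each APOL gene in each of the 8 libraries, as log2 CPM with 0.5 counts added (y axis), by treatment group (x axis); points are libraries, open points have 0 counts and bars are the mean of 2 libraries. IFN-γ gave the highest level of all 5 genes, and with both treatments the genes lay between 0 counts for APOL4 and 42.1 CPM for APOL6.

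The 95% intervals of the log2 IFN-γ change, from 1.45 to 1.82 for APOL2, from 3.18 to 3.56 for APOL1 and from 3.88 to 4.21 for APOL6, did not overlap. A difference between members was not tested directly, since the 3 values come from the same libraries. In the order of response, APOL2 was thus followed by APOL1, APOL6 and APOL3.

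After IFN-γ, AX-0085 lowered APOL1, APOL2, APOL3 and APOL6, which all fell past both thresholds, where 8.28% of the genes tested were called lower. The call of APOL3, which entered the test only through libraries given IFN-γ, is not read against this share. The order of the falls was not that of the IFN-γ rises. This comparison shares its IFN-γ libraries with the previous one, so that the rise and the fall of a gene are not independent.

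APOL3 fell most, to 47 and 30 counts (1.50 and 1.35 CPM), which is 5.70% of its level with IFN-γ alone. The log2 fold change was -4.11 (SE 0.16, edgeR, Benjamini-Hochberg-adjusted p = 1.45e-10). The libraries with both treatments nevertheless lay above the 1 and 0 counts of untreated cells.

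APOL1 had 418 and 308 counts with both treatments (13.4 and 13.8 CPM), a log2 change of -2.88 against IFN-γ alone (SE 0.09, edgeR, Benjamini-Hochberg-adjusted p = 1.62e-11). APOL6 had 1322 and 935 counts (42.3 and 42.0 CPM), with a change of -2.23 (SE 0.07, edgeR, Benjamini-Hochberg-adjusted p = 2.04e-11). APOL2 had 636 and 408 counts (20.3 and 18.3 CPM), with a change of -1.86 (SE 0.09, edgeR, Benjamini-Hochberg-adjusted p = 1.03e-09). APOL4 had 0 counts in both libraries, at least 2.02-fold below its IFN-γ level. Each member was lower in both libraries given the 2 agents than in the IFN-γ libraries. This is a description only, since the share of all genes that separate so was not counted.

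How much of the IFN-γ rise was lost depended on the gene and on the scale. On the log2 scale, AX-0085 removed 114% of the rise of APOL2, 85.5% of that of APOL1, 55.2% of that of APOL6 and 40.8% of that of APOL3. Over the 8 ways to choose a library from each of the 3 groups, the percentages lay between 107 and 122 for APOL2, 82.4 and 88.7 for APOL1, 53.6 and 56.7 for APOL6, and 39.0 and 47.1 for APOL3, so that the genes kept this order. On the scale of CPM the percentages were 107% for APOL2, 95.7% for APOL1, 94.4% for APOL3 and 83.8% for APOL6. APOL3 thus stood last on the former scale and the third on the latter. Its value on the log2 scale rests on 1 count in untreated cells, and was 33.5% without untreated replicate 1. All these percentages take untreated cells as the baseline. Without IFN-γ, AX-0085 itself moved APOL1, APOL2 and APOL6 by -1.02, -0.50 and 1.02 on the log2 scale. Set against AX-0085 alone, the IFN-γ change was 1.51 for APOL1, 0.27 for APOL2 and 0.79 for APOL6. The order of APOL1 and APOL6 thus depended on the baseline.

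**Figure D2:**
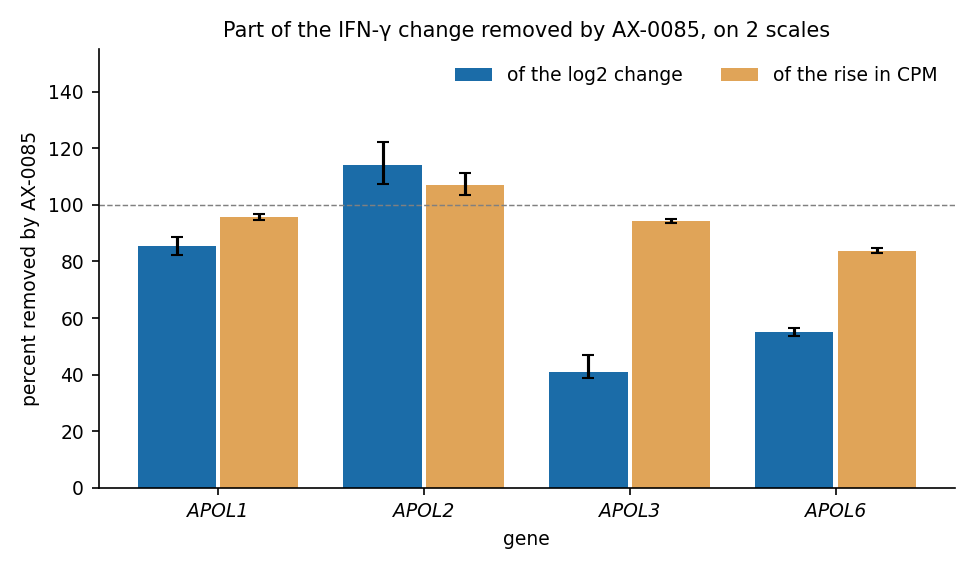
Percent of the IFN-γ change removed by AX-0085 (y axis) for the 4 tested genes (x axis), on the log2 scale (blue) and on the scale of CPM (orange); whiskers give the lowest and highest value over the 8 choices of a library per group. APOL2 passed 100% on both scales, and APOL3 had 40.8% on the log2 scale and 94.4% on that of CPM.

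Compared with untreated cells, cells given both treatments kept raised levels of APOL3 and APOL6, and these 2 were called higher, where 7.51% of all genes tested were. The call of APOL3, which entered the test only through libraries given IFN-γ, is not read against this share. APOL6 remained 3.52-fold above untreated cells, with a log2 change of 1.81 (SE 0.08, edgeR, Benjamini-Hochberg-adjusted p = 8.84e-10). For APOL3 the ratio of summed counts, 77 against 1, was 78.8 with a 95% exact interval from 13.7 to 3153. APOL1 had a log2 change of 0.49 (SE 0.10, edgeR, Benjamini-Hochberg-adjusted p = 0.000721), which is under the fold threshold. APOL2 had a change of -0.23 (SE 0.09, edgeR, Benjamini-Hochberg-adjusted p = 0.0471), so that with both treatments its libraries, at 20.3 and 18.3 CPM, lay below the 22.3 and 23.2 CPM of untreated cells. This small difference passed the adjusted p alone, as 28.8% of all genes tested did in this direction, and not the fold threshold. It did not pass under 12 of 15 alternative fits, with adjusted p-values from 0.0292 to 0.302 (edgeR or DESeq2, Benjamini-Hochberg).

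AX-0085 without IFN-γ moved members in opposite directions. APOL1 was called lower, where 5.62% of all genes tested were, and APOL6 was called higher, where 6.41% were. APOL1 had 120 and 126 counts (4.78 and 4.74 CPM) against 9.17 and 10.3 CPM in untreated cells, a log2 change of -1.02 (SE 0.11, edgeR, Benjamini-Hochberg-adjusted p = 5.38e-06). APOL6 had 611 and 648 counts (24.3 and 24.4 CPM) against 12.5 and 11.4 CPM, a change of 1.02 (SE 0.08, edgeR, Benjamini-Hochberg-adjusted p = 2.82e-07). In both genes the libraries of the 2 groups did not overlap. The share of all genes that separate so was not counted here either, so this is a description only. Both changes stood just past the fold threshold, and without untreated replicate 2 they were -0.95 and 0.96, below it, with adjusted p-values of 5.69e-05 and 4.58e-06. In edgeR's test against a 2-fold change (glmTreat) neither passed, with an adjusted p of 1 for each.

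APOL2 had 401 and 428 counts with AX-0085 alone (16.0 and 16.1 CPM). The log2 change was -0.50 (SE 0.09, edgeR, Benjamini-Hochberg-adjusted p = 0.000513), under the fold threshold. Its libraries again did not overlap the untreated ones, which is likewise a description only. By the adjusted p alone both APOL1 and APOL2 were lower, as were 26.6% of all genes tested. APOL3 had 0 and 1 counts, and APOL4 had 0 in both libraries, so that a fall of these genes could not have been seen at this depth. Summed over the family, the CPM were close in both groups, with 44.4 ± 0.666 CPM (SD, n = 2) in untreated cells and 45.2 ± 0.131 CPM (SD, n = 2) with AX-0085 alone, with APOL6 higher and APOL1 and APOL2 lower. Per kilobase of exon length, where the long APOL6 weighs less, the sum was lower with AX-0085 alone, at 8.49 ± 0.0283 CPM per kb (SD, n = 2) against 10.6 ± 0.336 (SD, n = 2) in untreated cells. The CPM sum was 394 ± 4.15 CPM (SD, n = 2) with IFN-γ and 76.5 ± 1.35 CPM (SD, n = 2) with both.

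**Figure D3:**
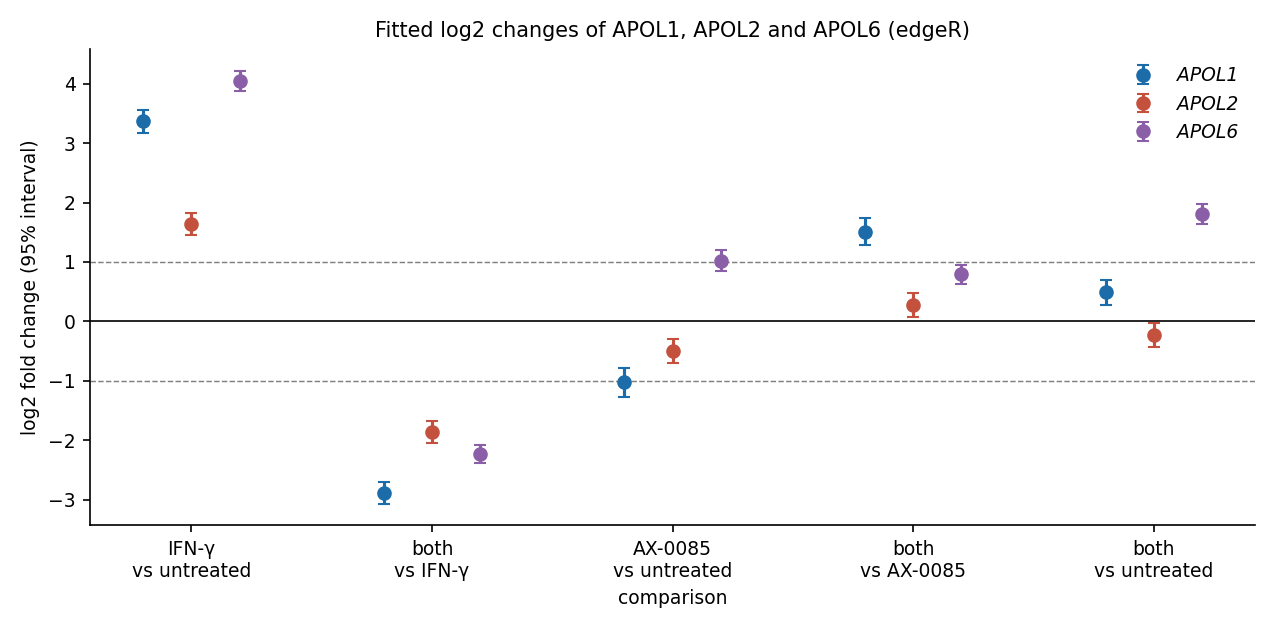
Fitted log2 fold changes of APOL1, APOL2 and APOL6 (y axis) in 5 comparisons of the groups (x axis), with 95% intervals as whiskers and the 2-fold limits as dashed lines. The 3 genes moved together with IFN-γ and upon addition of AX-0085 to it, and with AX-0085 alone APOL1 (-1.02) and APOL6 (1.02) lay on opposite sides of 0.

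Cells given both agents were also compared with cells given AX-0085 alone. IFN-γ had acted for 24 h before the inhibitor was added, so that a level left from those hours and a rise in the presence of the inhibitor cannot be told apart. In this comparison APOL1 and APOL3 were called higher, where 1.79% of all genes tested were. APOL3 entered the test only through libraries given IFN-γ, so that its call is not read against this share. APOL1 had a log2 change of 1.51 (SE 0.11, edgeR, Benjamini-Hochberg-adjusted p = 7.74e-07), or 2.85-fold. APOL3 had 77 summed counts against 1, a ratio of 74.3 with a 95% exact interval from 13.0 to 2974. APOL6 had a change of 0.79 (SE 0.07, edgeR, Benjamini-Hochberg-adjusted p = 5.41e-06) and APOL2 a change of 0.27 (SE 0.09, edgeR, Benjamini-Hochberg-adjusted p = 0.0379), both under the fold threshold. By the adjusted p alone APOL6 and APOL2 were higher too, as were 17.3% of all genes tested, but APOL2 did not pass under 5 of 15 alternative fits, with adjusted p-values from 0.011 to 0.233 (edgeR or DESeq2, Benjamini-Hochberg). Whether cells given both are set against untreated cells or against AX-0085 alone thus changed the order of the 2 genes, with APOL6 above APOL1 in the former comparison and APOL1 above APOL6 in the latter. Both comparisons use the same libraries with both treatments.

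The effect of AX-0085 was also tested for a difference with and without IFN-γ, as an interaction. APOL6, APOL1 and APOL2 were called with a negative term, where 6.46% of all genes tested were, and their terms were -3.26, -1.86 and -1.36 on the log2 scale. The SE of the APOL6 term was 0.10 (edgeR, Benjamini-Hochberg-adjusted p = 2.4e-10). For APOL6 the sign of the AX-0085 effect differed, at 1.02 without IFN-γ and -2.23 with it. For APOL1 and APOL2 both effects were negative and the one with IFN-γ was larger in size. The term of APOL3 was -4.18 with a SE of 2.11 (edgeR, Benjamini-Hochberg-adjusted p = 0.121, 95% interval from -8.75 to 0.39), and its level without IFN-γ rests on 1 count in each group.

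The make-up of the family was compared per kilobase of exon length, which allows levels of different genes to be set side by side. In untreated cells APOL2 stood first with 6.65 ± 0.188 CPM per kb (SD, n = 2), followed by APOL1 with 2.81 ± 0.225 (SD, n = 2) and APOL6 with 1.19 ± 0.0723 (SD, n = 2), and the libraries of these 3 genes did not overlap. APOL3 and APOL4 followed near or at 0 and could not be told apart. With IFN-γ, APOL1 became the highest member, at 29.0 ± 1.83 CPM per kb (SD, n = 2). APOL2, at 20.6 ± 1.88 (SD, n = 2), and APOL6, at 19.7 ± 1.03 (SD, n = 2), did not differ beyond their spread. APOL3 came next with 4.23 ± 0.287 (SD, n = 2) and APOL4 last with 0.0526 ± 0.0101 (SD, n = 2).

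As shares of the family's summed level per kb, APOL2 went from 62.4% in untreated cells to 55.3% with AX-0085, 28.0% with IFN-γ and 40.3% with both. APOL1 made up 26.4%, 16.2%, 39.3% and 28.1% in the same order. APOL6 made up 11.2% in untreated cells and between 26.8% and 29.9% in the 3 treated groups, so that its share was higher in every treated group. Shares depend on each other, and a higher share of 1 gene does not show that its level rose. With both treatments, APOL2 stood first at 5.66 ± 0.413 CPM per kb (SD, n = 2), and APOL6, at 4.19 ± 0.0169 (SD, n = 2), lay 1.06 times above APOL1, at 3.93 ± 0.0981 (SD, n = 2), without overlap. With the length of the canonical transcript in place of all exons, a choice made after seeing the data, APOL1 lay 1.16 times above APOL6 there, and with IFN-γ APOL2 lay 1.47 times above APOL6 without overlap. APOL3 was 12.2 CPM per kb with IFN-γ by that length, and APOL6 lay 1.61 times above it, in place of 4.65 times by all exons. The order around APOL6 and the level of APOL3 thus depended on the length used.

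**Figure D4:**
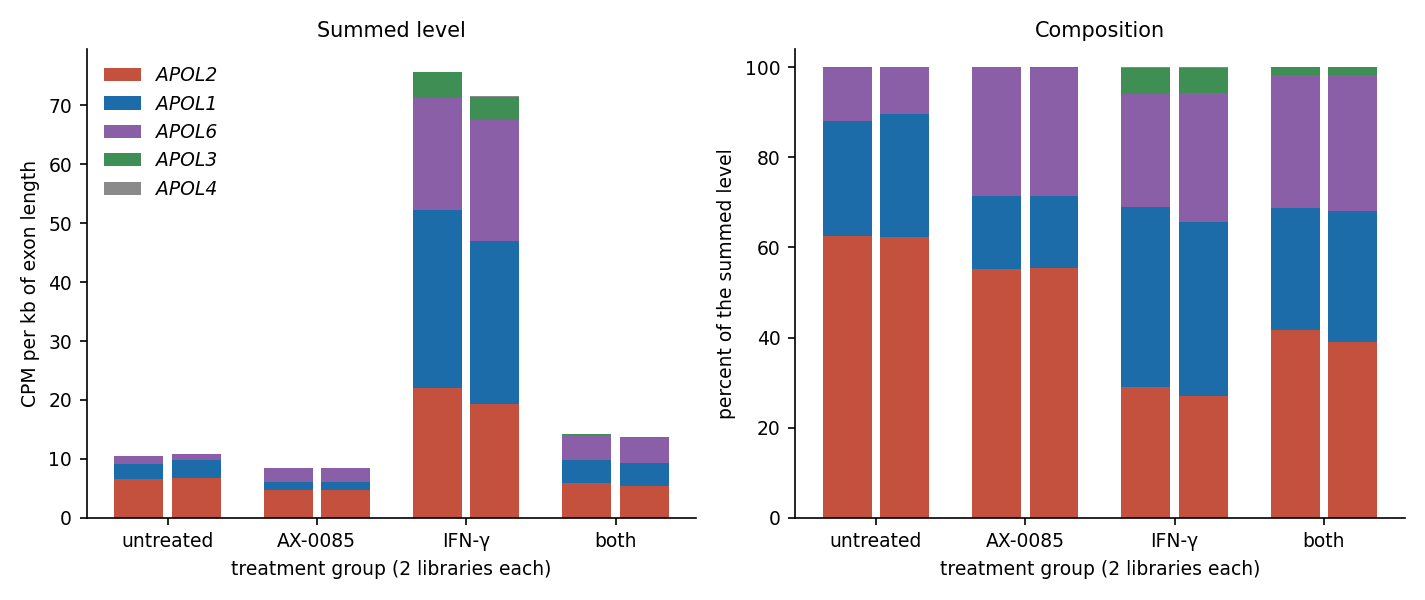
Level of the APOL genes in CPM per kb of exon length (left, y axis) and as percent of their sum (right, y axis), with 1 bar per library in each treatment group (x axis). The sum was highest with IFN-γ, at 73.6 CPM per kb against 10.6 in untreated cells, and APOL2 made up 62.4% of it in untreated cells and 28.0% with IFN-γ.

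Among the 13 protein-coding genes within 500 kb of the cluster, 12 were tested with IFN-γ. Of these, MYH9 was called higher, where 10.3% of all genes tested were, and 5 genes lower, where 17.2% were. The single higher call among 12 genes is close to its share. The median log2 change of the neighbours was -0.80 against -0.06 over all genes tested. MYH9, a non-muscle myosin heavy chain gene that lies directly beside APOL1, had a log2 change of 1.22 (SE 0.06, edgeR, Benjamini-Hochberg-adjusted p = 1.01e-09). With AX-0085 added, its change was -0.72, under the fold threshold. MB, the myoglobin gene on the other side of the cluster next to APOL6, fell by 2.23 on the log2 scale with IFN-γ and rose by 2.79 when the inhibitor followed. RBFOX2, a splicing regulator that lies between APOL5 and APOL3, had a log2 value of 0.34 with IFN-γ. With the inhibitor after IFN-γ, edgeR called 4 of the 12 neighbours higher, where 16.5% of all genes tested were, and 0 lower, where 8.28% were. APOL1, APOL2 and APOL6 were called lower there, as was APOL3, which entered the test only through libraries given IFN-γ. With AX-0085 alone, MB was called higher, with a change of 1.04, where 6.41% of all genes tested were. MCM5, a replication gene, was called lower, with a change of -1.37, where 5.62% were. A single call among 12 genes in each direction is close to these shares.

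**Figure D5:**
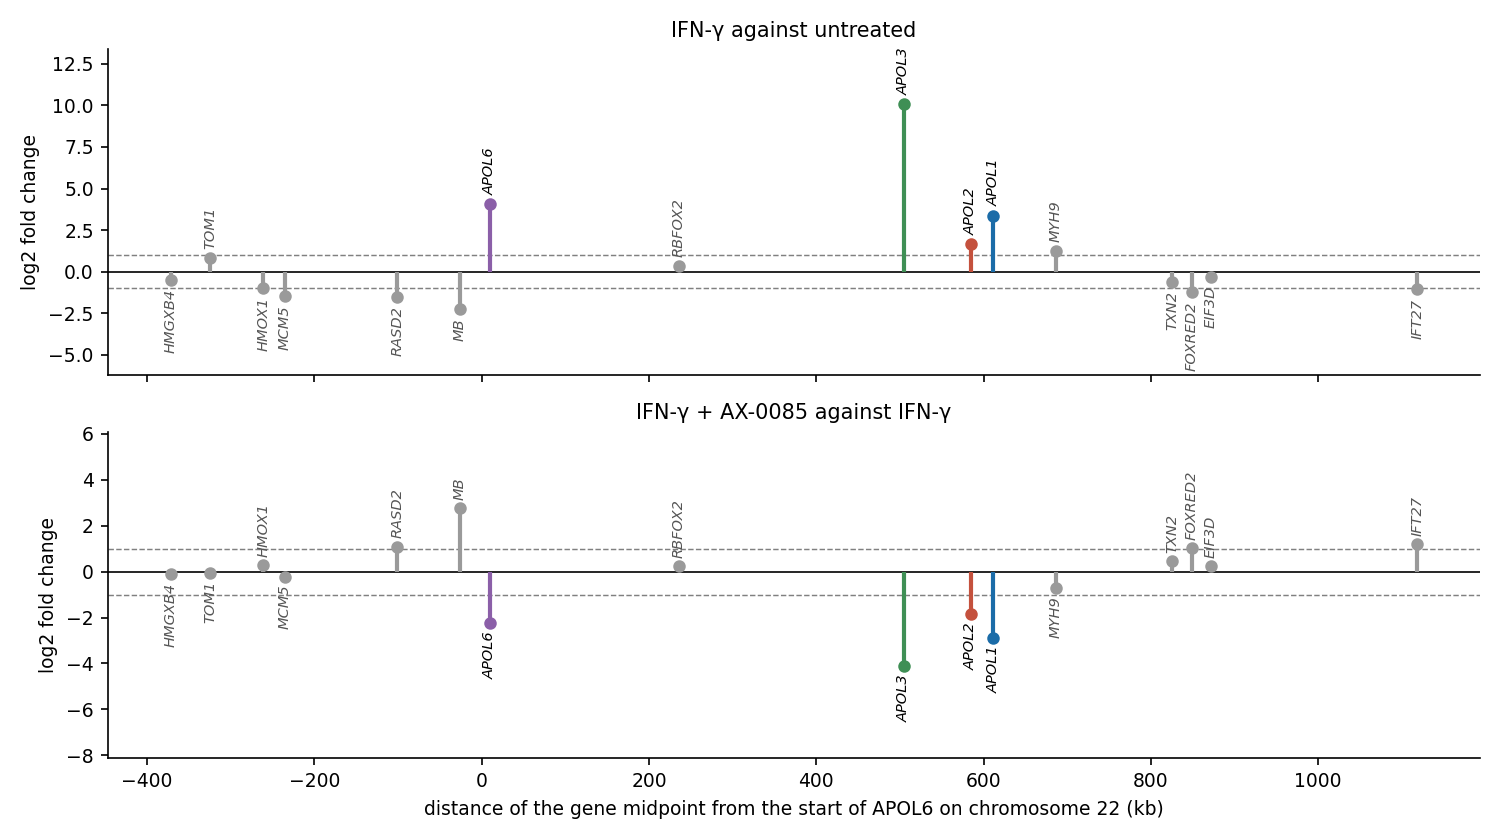
Log2 fold change (y axis) of the 4 tested APOL genes (colors) and the 12 tested neighbouring genes (grey) by distance from the start of APOL6 in kb (x axis), for IFN-γ against untreated cells (top) and for AX-0085 added to IFN-γ (bottom), with the 2-fold limits as dashed lines. The APOL genes were higher at the top and lower at the bottom, MB had the opposite signs (-2.23 and 2.79), and the APOL3 value at the top rests on 1 count in untreated cells.

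The members were set beside genes of IFN-γ signaling and of defense against pathogens in the cytosol. Of 18 signaling genes, 16 were tested and 7 were called higher with IFN-γ and 0 lower, with a median log2 change of 0.54, where 10.3% of all genes tested were called higher. Of the 7, CIITA and IRF9 had under 10 counts in every library without IFN-γ and entered the test only through libraries given it. JAK2 had a log2 value of 0.58, under the fold threshold. IRF1 and SOCS1 had 0 counts in all 8 libraries and were not measured. With AX-0085 added to IFN-γ, 7 of the 16 were called lower, where 8.28% of all genes tested were, and 0 higher, with a median of -0.73. CIITA and IRF9 were again among the 7. With AX-0085 alone, JAK2 had a log2 value of -0.18, which does not describe the list. STAT2 had 0.95, under the fold threshold, and SOCS3 had -1.14. SOCS3 was among the 2 of the 16 genes called lower, where 5.62% of all genes tested were. In this comparison 0 were called higher, where 6.41% were.

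Of 15 defense genes, 11 were tested and 8 were called higher with IFN-γ, with a median log2 change of 1.81, and 6 were called lower when AX-0085 followed IFN-γ, with a median of -1.67, beside 10.3% and 8.28% of all genes tested. Of the 8, GBP1, GBP4 and GBP5 entered the test only through libraries given IFN-γ, as APOL3 did, and they are among the 6 called lower. The calls in both directions and both medians are thus a description and no support. GBP1, a GTPase that coats bacteria in the cytosol, had 4 and 2 counts in untreated libraries, 6377 and 8034 in IFN-γ libraries, and 73 and 53 in those with both agents. GBP5 counts were 0 and 1, then 176 and 274, then 2 and 3 in the same order. Like APOL3, both genes were near the detection floor without IFN-γ, and after AX-0085 GBP5 was at or under 3 counts per library while APOL3 kept 47 and 30. Of 11 lipoprotein genes, among them the apolipoproteins that share particles with APOL1, 4 had no counts and 6 were tested. With IFN-γ only the cholesterol exporter gene ABCA1 among these 6 was called higher, with a log2 change of 1.26, and the median was 0.12. A single call among 6 genes is close to the share of 10.3% over all genes tested.

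For each tested member, the most similar patterns outside the family were sought among the 10119 genes whose mean log2 CPM reached 2. Likeness was the root mean square difference between mean-centred log2 CPM values over the 8 libraries, which is small when 2 genes move alike in direction and size. APOL6 was nearest to DTX3L (0.124), a ubiquitin ligase gene, and IFIH1 (0.182), a sensor of viral RNA. DTX3L had log2 changes of 3.96 with IFN-γ, 0.93 with AX-0085 alone and -2.47 with AX-0085 added to IFN-γ, and IFIH1 had 3.59, 0.92 and -2.06. Like APOL6, both had positive values with AX-0085 alone. This is no separate result, since the libraries with AX-0085 alone entered the choice of these genes.

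APOL2 was nearest to ODC1 (0.0842), which makes polyamines, and to PFDN2 (0.111), a subunit of the chaperone prefoldin. ODC1 had log2 changes of 1.77 with IFN-γ, -0.49 with AX-0085 alone and -2.01 with AX-0085 added to IFN-γ. Among the genes nearest to APOL1 was PALM2AKAP2 (0.296), with log2 values of 2.89, -0.81 and -2.79 in the same order. Its negative value with AX-0085 alone, as in APOL1, is likewise no separate result. For APOL3 the nearest of these candidates were HLA-B (1.40) and HLA-F (1.73) of MHC class I. The limit on mean level keeps out genes that, like APOL3 itself (mean log2 CPM -1.18), are near 0 without IFN-γ, so that the distance of its nearest candidates is not read as a lack of similar genes. Between members the distances were larger than to these nearest genes for APOL1, APOL2 and APOL6, with 0.766 between APOL1 and APOL6, 0.848 between APOL1 and APOL2 and 0.926 between APOL2 and APOL6. These distances describe 8 libraries in 4 groups and carry no test.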

How the data were processed

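Reads of stranded mRNA libraries were trimmed (Trim Galore 0.6.7), aligned to GRCh38 (STAR 2.7.9a) and summed by gene (featureCounts) by the authors, who deposited raw counts, per the submitters' processing notes. The annotation release, strand setting and handling of multi-mapped reads are not given in the sources used here. No per-sample column was left out. Symbols, positions and lengths are from GENCODE 44, which matched 60463 identifiers. Promoter and protein sequences of the family were not analysed here.

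Low genes were dropped by filterByExpr of edgeR 4.0.16 (R 4.3.3), TMM factors were applied, and 1 quasi-likelihood fit of the 4 groups over 8 libraries gave every test, with Benjamini-Hochberg adjustment over 15066 genes. Calls needed an adjusted p below 0.05 and a fold above 2. Standard errors are the log2 change divided by the square root of the F statistic. With 2 libraries against 2, an exact permutation test cannot give a p under 0.333, so none was used. The scripts were tested on simulated data. Alternatives were DESeq2 1.42.0, other scalings, filters and call rules, a replicate block, a fit of only the groups compared, and leaving out each library.

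The members and gene lists were chosen with earlier results of these data known. The text names the 5 members and APOL5, for each tested member the 2 genes of most similar pattern, IRF1, JAK2, SOCS1, GBP1, GBP5, and the neighbours next to APOL genes. Some of the genes that this rule names are not reported here. CIITA, IRF9, STAT2, SOCS3, GBP4, MCM5 and ABCA1 were named after their values were seen. Likeness used 0.5 added counts. Total counts ranged from 20672828 to 29978251.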

Additional observations from a re-analysis of the deposited data

Results flagged for a closer look

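In 3 members AX-0085 acted differently in the presence and in the absence of IFN-γ, by edgeR's interaction test. Their terms were negative, and 6.46% of all 15066 genes tested were called with a negative term. By the adjusted p alone 3552 genes had a negative and 4025 a positive term, so that such a difference was common in these data. The difference was -3.26 on the log2 scale for APOL6 (95% interval from -3.48 to -3.03), -1.86 for APOL1 (from -2.16 to -1.55) and -1.36 for APOL2 (from -1.64 to -1.08), with Benjamini-Hochberg-adjusted p-values of 2.4e-10, 3.25e-07 and 1.95e-06. In APOL6 the effect also changed sign, from 1.02 to -2.23. With each library left out in turn, the APOL6 term lay between -3.34 and -3.20.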

How the results depend on the processing

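No called value changed sign under the alternatives tried. Counts of calls over all genes, given as higher and lower, moved with the rule for a call. By the adjusted p alone they were 4838 and 5421 for IFN-γ, 5079 and 4940 for AX-0085 after IFN-γ, 4018 and 4010 for AX-0085 alone, 2601 and 2627 for both agents against AX-0085, 4234 and 4339 for both against untreated, and 4025 and 3552 for the interaction, and APOL calls were then 2 lower with AX-0085 alone, 4 higher for both against AX-0085 and 1 lower for both against untreated. With edgeR's test against a 2-fold change (glmTreat) they were 965 and 1483, 1349 and 722, 265 and 340, 62 and 18, 448 and 470, and 748 and 372 in the same order, and AX-0085 alone had 0 APOL calls higher and 0 lower. With a minimum of 10 counts in every library, which removes APOL3, lower calls for IFN-γ were 1716, higher calls for AX-0085 after IFN-γ 1568 and for AX-0085 alone 520, calls for both against AX-0085 147 and 98 with 1 APOL gene higher, and for both against untreated 684 and 701 with 1 APOL gene higher. DESeq2 gave 144 lower calls for both against AX-0085.

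With library size alone as the scale, which moved the median of all genes by -0.12 for IFN-γ, the percent of the APOL6 change removed was 53.7, and mean levels were 4.87 CPM for APOL1, 16.4 for APOL2 and 24.9 for APOL6 with AX-0085, and 186 and 43.1 CPM for APOL6 with IFN-γ and with both. With RLE factors the AX-0085 levels were 4.71, 15.9 and 24.1 CPM. With libraries left out in turn, AX-0085 alone gave 0 to 1 APOL calls in each direction (0 without untreated replicate 2), and 170 to 271 genes were lower for both against AX-0085 (170 without IFN-γ + AX-0085 replicate 1). The percent removed then ranged from 33.5 to 43.97 for APOL3 and from 53.8 to 56.0 for APOL6. The cause of these shifts was not tested.

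Libraries with the same replicate number did not deviate together (correlations from -0.09 to 0.06), and with a replicate block IFN-γ had 1537 higher and 2561 lower calls and the same number of APOL calls in every comparison. Levels of APOL3 without IFN-γ and of APOL4 are limited by depth.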
